A study of Mus musculus with 12 samples.

Results

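The genes described here are 34 genes of antigen presentation by MHC class I and class II molecules, chosen by gene symbol for their known roles. Earlier results of these data were known when they were chosen. All 34 were found among the 26305 genes of the count table, 23 of them with class I roles and 11 with class II roles. After removal of genes with low counts 31 of the 34 remained among the 11997 genes tested, and H2-Eb1, H2-DMb2 and Ciita did not. RNA was sequenced from EMRK1184luc, a lymphoma cell line of B cell origin from a female Eµ-Myc transgenic mouse, in which Myc is driven by the immunoglobulin heavy chain enhancer. A luciferase construct had been introduced into the line with a lentivirus. The 4 groups were cultures with 5 µM WM-1119 for 3 days, cultures with the vehicle DMSO for 3 days, cultures with 5 µM WM-1119 for 6 days and cultures with DMSO for 6 days, with 3 libraries each. WM-1119 is a small molecule that inhibits KAT6A and KAT6B, which acetylate histones. The transgene, the luciferase construct and the cell line itself were common to all 4 groups, so every value comes from 1 tumour line, and culture dates or batches are not given in the labels.

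MHC class I molecules sit on nearly every nucleated cell and show fragments of the cell's own proteins to CD8+ T cells. The fragments are cut by the proteasome, carried into the endoplasmic reticulum by the TAP transporter, trimmed there, and loaded with the help of tapasin onto a heavy chain paired with beta-2 microglobulin. Class II molecules, made by B cells and other professional antigen-presenting cells, show fragments of endocytosed proteins to CD4+ T cells. The invariant chain guides them to the endosome, and DM and DO adjust which fragment is bound. The 2 classes have transactivators of the same protein family, NLRC5 for class I and CIITA for class II. Both act through promoter elements known as the S, X and Y boxes, which are bound by RFX, CREB and NF-Y proteins, and neither binds DNA by itself.

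Stretches near RefSeq starts of 9 members are printed to show where 2 letter patterns, TGACG (the core of the X2 box) and ATTGG (the Y box), are present or missing in members of different levels. Each stretch is 80 bases from RefSeq's GRCm38.p6 sequence, read 5′ to 3′ on the strand of the gene, and begins 45 bases before an ATTGG. Capitals mark TGACG and ATTGG on either strand, so that CCAAT is the same Y box pattern read on the other strand; the TGACGTCA of H2-Aa holds TGACG on both strands.
H2-K1: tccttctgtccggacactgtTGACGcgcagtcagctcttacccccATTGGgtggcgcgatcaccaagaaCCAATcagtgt
H2-D1: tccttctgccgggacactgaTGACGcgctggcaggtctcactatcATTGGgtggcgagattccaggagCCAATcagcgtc
H2-Q4: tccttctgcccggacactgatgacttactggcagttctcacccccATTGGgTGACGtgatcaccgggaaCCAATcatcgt
H2-Q6: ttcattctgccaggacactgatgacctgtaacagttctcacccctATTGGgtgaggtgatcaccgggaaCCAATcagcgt
H2-Q7: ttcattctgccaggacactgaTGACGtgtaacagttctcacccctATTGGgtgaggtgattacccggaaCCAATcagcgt
B2m: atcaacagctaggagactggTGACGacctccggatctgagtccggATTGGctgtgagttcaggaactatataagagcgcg
H2-Aa: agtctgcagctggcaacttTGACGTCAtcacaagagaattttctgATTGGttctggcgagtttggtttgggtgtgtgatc
H2-Ob: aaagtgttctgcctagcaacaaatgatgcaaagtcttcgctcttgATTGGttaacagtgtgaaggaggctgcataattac
H2-Eb2: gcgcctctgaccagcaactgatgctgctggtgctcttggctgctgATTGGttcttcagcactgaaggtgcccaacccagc

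The class I stretches lie at chr17:34000329-34000408 (minus strand) for H2-K1, chr17:35262973-35263052 for H2-D1, chr17:35379493-35379572 for H2-Q4, chr17:35424726-35424805 for H2-Q6, chr17:35439070-35439149 for H2-Q7 and chr2:122147589-122147668 for B2m, the last 5 on the plus strand. The class II stretches lie at chr17:34287837-34287916 (minus strand) for H2-Aa, chr17:34238803-34238882 for H2-Ob and chr17:34325530-34325609 for H2-Eb2, the last 2 on the plus strand. The stretches of H2-K1 and H2-Eb2 and 10 bases of that of H2-Q7 lie within the annotated span of the gene, since RefSeq's window is set on a start inside it. From the first base of TGACG to the first base of ATTGG there were 25 bases in H2-K1, H2-D1 and B2m, 24 in H2-Q7 and 26 in H2-Aa. In H2-Q4, H2-Q6, H2-Ob and H2-Eb2 no TGACG came before this ATTGG at such a distance. The stretches of H2-Q6 and H2-Q7 were identical at 96.2% of positions and differed by C26G, C61T and G65C, with the base of H2-Q6 first and positions counted from 1 at the 5′ end. The first of these completes the TGACG of H2-Q7.

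RefSeq promoter windows of 300 bases, 250 of them upstream of a listed start, were at hand for 26 members. For 6 of them, H2-K1, H2-Q7, Erap1, H2-Eb2, H2-DMa and H2-DMb2, this start lies inside the annotated gene and not at its outer end. No window was at hand for H2-T24, Cd1d1, Tap2, Tapbpl, Nlrc5, H2-Ab1, Cd74 and Ciita. ATTGG on either strand was found in 20 of the 26 member promoters and in 37.4% of all 32851 promoters, and TGACG on either strand in 12 of 26 and 20.8%. Of the 18 class I windows 13 held the Y box letters and 11 the X2 letters. Of the 8 class II windows 7 held the Y box letters and 1, that of H2-Aa, the X2 letters. TGACG followed by ATTGG on the sense strand, with starts 15 to 30 bases apart, was found in 6 of 26 member promoters, those of H2-K1, H2-D1, B2m, H2-Q7, H2-M3 and H2-Aa, and in 0.314% of all promoters. The core letters of an interferon-stimulated response element, GAANNGAAA on either strand, were found in 7 of 26 and 7.52%. These are matches of letters and not measured binding. A box spelled with other letters would not be found, so a window without TGACG is not shown to lack an X2 box.

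Library totals were 18327651 to 28228807 counts with WM-1119 and 17928095 to 21712496 with DMSO at 3 days, and 14736267 to 17563985 with WM-1119 and 22831687 to 41749357 with DMSO at 6 days. The 34 genes held 0.454% to 0.535% of all counts, depending on the library. Levels are given as CPM, counts scaled by library total and TMM factor. The B cell receptor component gene Cd79a (610.0 to 702 CPM) and the surrogate light chain gene Vpreb1 (211 to 287 CPM) were present in every library, whereas Ms4a1, which encodes CD20, had no counts in 11 libraries and 0.0565 CPM in the other. Some other B cell markers differed between the treatments at both times, in both directions. Pax5 was lower, at 83.9 to 93.2 CPM with WM-1119 and 115 to 137 CPM with DMSO. Ebf1 was lower too, at 104 to 120.1 CPM with WM-1119 and 132 to 145 CPM with DMSO. Cd79b was higher, at 381 to 434 CPM with WM-1119 and 268 to 309 CPM with DMSO. Some transcripts of fibroblasts stood out in 5 libraries. Col1a1 was at 12.9 and 6.83 CPM in WM-1119 replicates 2 and 1 of 6 days. It was at 6.10 and 2.08 CPM in DMSO replicates 1 and 2 of 6 days, and 1.88 CPM in WM-1119 replicate 2 of 3 days. Col1a2 and Fn1 followed, at 8.20 and 8.76 CPM in WM-1119 replicate 2 of 6 days and 0.0813 and 0.244 CPM in DMSO replicate 3. Col3a1 and Sparc followed too, at 2.32 and 2.43 CPM in the former library and 0.0406 and 0 CPM in the latter. Col6a1 and Pdgfrb were at 0.961 and 0.679 CPM in the former and 0.0813 and 0.0406 CPM in the latter. Dcn and Lum did not follow. Dcn was at 0 and 0.406 CPM in these libraries, and Lum had no counts with WM-1119 at 6 days. Of 9 macrophage and monocyte markers the summed level was lower with WM-1119, at 37.3 to 38.4 CPM against 58.4 to 68.1 CPM with DMSO at 3 days and at 35.8 to 42.6 CPM against 59.8 to 64.7 CPM with DMSO at 6 days, mostly from Mrc1. The receptor gene Csf1r was higher, at 3.62 to 4.56 CPM with WM-1119 against 0.569 to 1.05 CPM with DMSO at 6 days. The summed level of 7 dendritic cell markers was 2.72 to 4.47 CPM with WM-1119 and 6.74 to 7.09 CPM with DMSO at 6 days. This difference lay mostly in Flt3, at 1.43 to 2.60 CPM with WM-1119 and 5.13 to 5.73 CPM with DMSO. Siglech went the other way, at 0.599 to 0.792 CPM with WM-1119 and 0.325 to 0.399 CPM with DMSO. Of 8 T and NK cell markers 7 had no counts at 6 days. Klrb1c alone had counts there, at 1.36 to 2.88 CPM with WM-1119 and 3.33 to 4.44 CPM with DMSO. The complement genes C1qa, C1qb and C1qc of macrophages, Clec9a of dendritic cells and Cd3e, Cd3d and Cd8a of T cells had no counts in any library, and the macrophage lysozyme gene Lyz2 was at most 0.270 CPM. A fit without the 5 libraries with over 1 CPM of Col1a1 is given below, with 1 library of each treatment left at 6 days. The part of fibroblasts and other cells in the results was not tested beyond it.

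**Figure D1:**
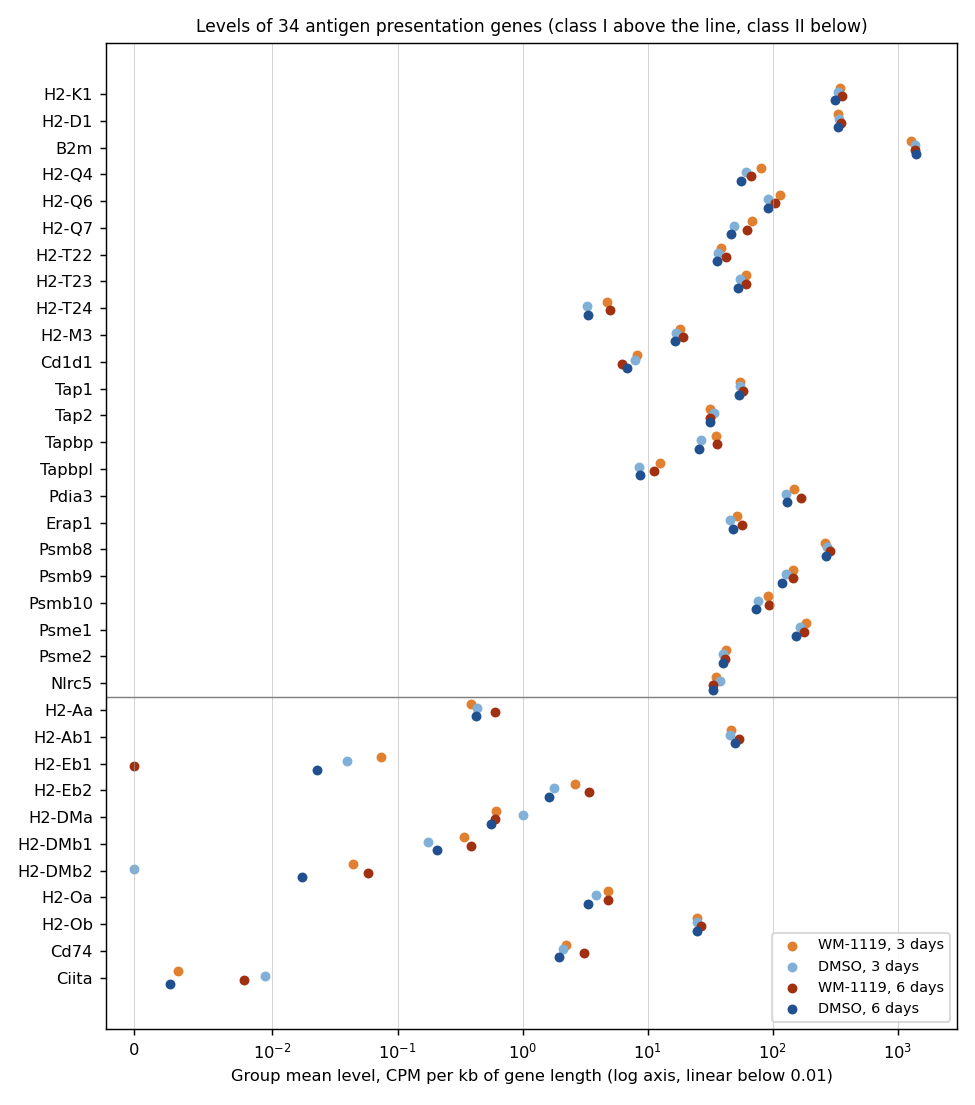
Group mean levels of the 34 antigen presentation genes in CPM per kilobase of gene length, on a log axis, with 1 point per group. Class I genes sit above the line and class II genes below it; B2m is the highest at a mean of 1361 over the 12 libraries, while of the class II genes H2-Ab1 and H2-Ob alone exceed 10.

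Per kilobase of gene length, the class I part of the set was abundant and the class II part was low except for 2 genes. B2m, the shared light chain of class I, was highest at 1361 CPM per kb (mean of 12 libraries, range 1218 to 1469.8), and the classical heavy chain genes H2-D1 and H2-K1 had means of 339 and 336, with ranges over the libraries that overlapped. The immunoproteasome gene Psmb8 followed at 272, then Psme1 at 171, Pdia3 at 143 and Psmb9 at 134. Of the class II genes, the beta chain gene H2-Ab1 had a mean of 49.0 CPM per kb (range 45.1 to 54.7) and the DO beta chain gene H2-Ob 25.4 (22.2 to 27.5). The alpha chain gene H2-Aa, whose product pairs with that of H2-Ab1, had a mean of 0.459 CPM per kb (range 0.249 to 0.764). H2-Ab1 had from 78.7 to 240 counts for each count of H2-Aa in the 12 libraries. The invariant chain gene Cd74 was at 2.36 CPM per kb and Ciita at 0.00580. Of the 11 class II genes 9 averaged under 5 CPM per kb.

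With WM-1119, 12 of the 31 tested genes were higher than with DMSO at 3 days and none was lower. At 6 days 18 were higher, and again none was lower (edgeR quasi-likelihood test, adjusted p below 0.05). Over all 11997 genes tested 24.4% were called at 3 days, 11.8% as higher and 12.6% as lower, and 30.8% at 6 days, 15.7% as higher and 15.1% as lower. Of members lower with WM-1119, 3 at 3 days (B2m, Tap2 and Nlrc5) and 0 at 6 days had an unadjusted p below 0.05, and DESeq2 too called 0 members lower. The 12 genes called at 3 days were all called at 6 days too. Among the called genes the largest changes were H2-Eb2, at 2.1-fold at 6 days, Cd74 at 1.62-fold at 6 days and H2-T24 at 1.5-fold at 6 days. The median log2 fold change of the tested members was 0.09 at 3 days and 0.22 at 6 days, against 0.002 and -0.004 over all genes. Of the 23 class I genes 11 rose at 3 days and 15 at 6 days, and of the 8 tested class II genes 1 rose at 3 days and 3 at 6 days. The libraries of the treatments did not overlap at 3 days for 14 genes that were higher and 2 that were lower with WM-1119. At 6 days they did not overlap for 19 genes, each of them higher. Over all genes tested the groups did not overlap for 39.9% at 3 days and 41.3% at 6 days. Without the 5 libraries in which Col1a1 exceeded 1 CPM, 11 members passed as higher and 1 as lower at 3 days. At 6 days 8 passed as higher and 0 as lower, where 1 library of each treatment was left and 1516 of all genes were called. The 10 genes that no longer passed at 6 days were H2-T22, H2-T23, H2-T24, H2-M3, Erap1, Psmb9, Psmb10, Psme1, H2-Oa and Cd74, with log2 fold changes of 0.11 to 0.63 there and adjusted p of 0.0574 to 0.649. The log2 fold changes of all called members kept their sign there. Fold changes are relative to scaled library totals, and fewer cells with a transcript cannot be told apart from less of it per cell.

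**Figure D2:**
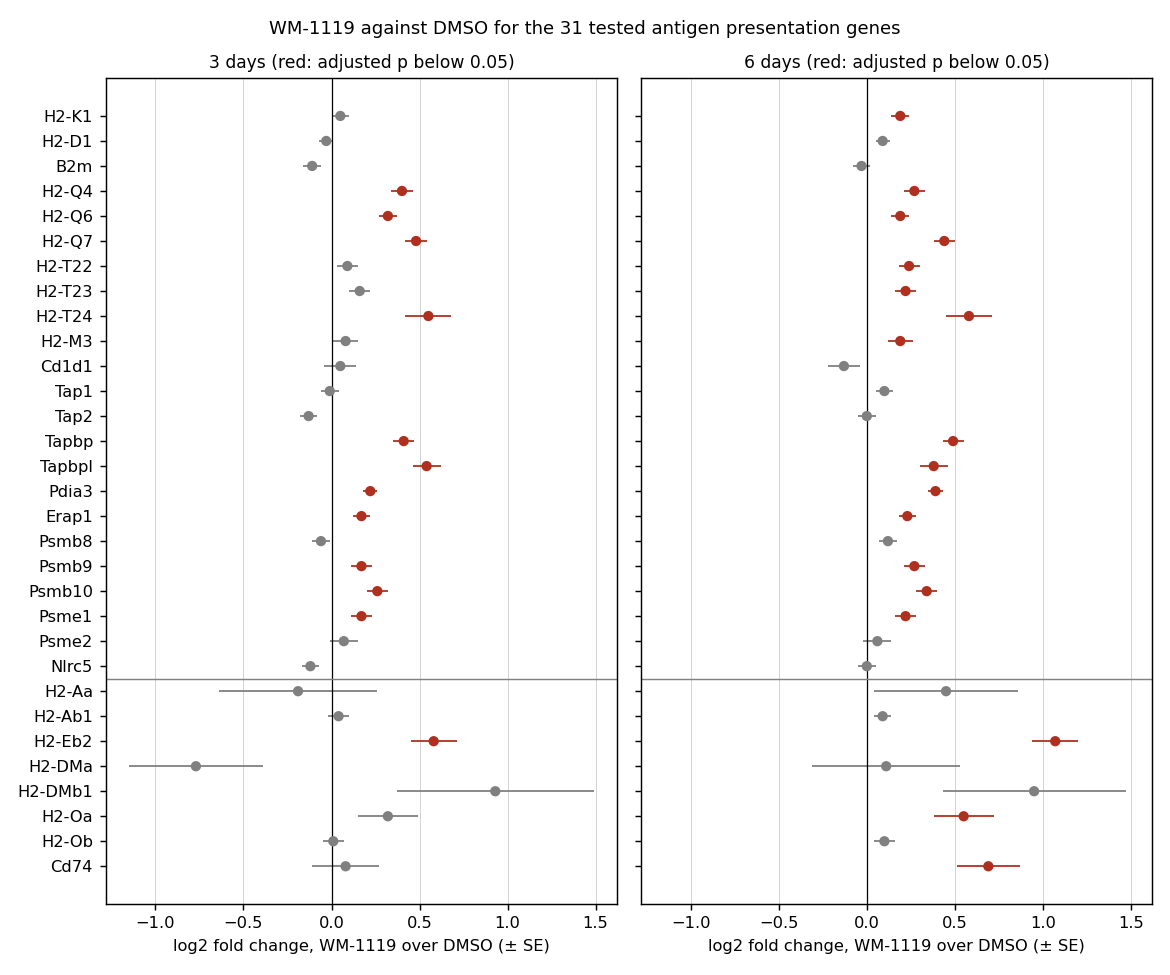
Log2 fold changes, WM-1119 over DMSO, with their standard errors for the 31 tested genes at 3 days and at 6 days, in red where the adjusted p was below 0.05. The 12 called genes at 3 days and the 18 at 6 days all lie right of 0; H2-Eb2 reaches 1.07 at 6 days, and H2-DMa and H2-DMb1 have the widest errors.

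The classical heavy chain genes, which make the molecules that present most peptides to CD8+ T cells, differed little between the treatments. H2-K1 was at 576, 554 and 558 CPM with WM-1119 and 534, 562 and 534 CPM with DMSO at 3 days. At 6 days H2-K1 was at 557, 618 and 588 CPM with WM-1119 and 514, 538 and 496 CPM with DMSO. The libraries overlapped at 3 days (log2 fold change 0.05 ± 0.05, SE; adjusted p = 0.467) and not at 6 days, where H2-K1 rose 1.14-fold (0.19 ± 0.05; adjusted p = 0.00287). H2-D1 was at 577, 572 and 587 CPM with WM-1119 and 578, 615 and 581 CPM with DMSO at 3 days. At 6 days H2-D1 was at 587, 629.5 and 609 CPM with WM-1119 and 553, 602 and 565 CPM with DMSO. Its libraries overlapped at both times, and it did not pass the test at 3 days (log2 fold change -0.03, unadjusted 95% interval -0.12 to 0.06; adjusted p = 0.649) or 6 days (0.09, 0.00 to 0.18; adjusted p = 0.144). B2m, at chr2:122147687-122153082 of mm10 and outside the MHC, was at 1165, 1045 and 1084 CPM with WM-1119 and 1201, 1194 and 1163 CPM with DMSO at 3 days. At 6 days B2m was at 1196, 1214 and 1136 CPM with WM-1119 and 1194, 1161 and 1261 CPM with DMSO. Neither of its differences passed the test, with log2 fold changes of -0.11 (interval -0.21 to -0.02; adjusted p = 0.0844) at 3 days and -0.03 (-0.12 to 0.07; adjusted p = 0.688) at 6 days. Without WM-1119 replicate 1 of 3 days, the highest of its group, B2m was called lower at 3 days (log2 fold change -0.16, adjusted p = 0.0218).

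The nonclassical heavy chain genes, which encode less abundant and less variable class I molecules, were higher with WM-1119 in 4 of 7 cases at 3 days and in 7 of 7 at 6 days. H2-Q7, one of the Qa-2 genes, was at 103, 106 and 104 CPM with WM-1119 and 74.7, 78.8 and 70.8 CPM with DMSO at 3 days. At 6 days H2-Q7 was at 95.7, 98.4 and 95.1 CPM with WM-1119 and 75.1, 75.7 and 62.8 CPM with DMSO. Each WM-1119 library lay above each DMSO library at both times, and H2-Q7 rose 1.4-fold at 3 days (log2 fold change 0.48 ± 0.06; adjusted p = 3.44e-06) and 1.35-fold at 6 days (0.44 ± 0.06; adjusted p = 8.92e-06). H2-Q6, whose promoter stretch differs from that of H2-Q7 at 3 positions, was at 109.5, 115 and 113 CPM with WM-1119 and 90.0, 91.4 and 89.5 CPM with DMSO at 3 days. At 6 days H2-Q6 was at 103, 104 and 103 CPM with WM-1119 and 97.0, 91.8 and 81.3 CPM with DMSO. The groups did not overlap, and it rose 1.25-fold at 3 days (0.32 ± 0.05; adjusted p = 0.000132) and 1.14-fold at 6 days (0.19 ± 0.05; adjusted p = 0.00868, and adjusted p = 0.0533 without DMSO replicate 3 of 6 days, the lowest). H2-Q4 was at 140.4, 149.6 and 142 CPM with WM-1119 and 111, 104 and 113 CPM with DMSO at 3 days. At 6 days H2-Q4 was at 117, 122 and 124 CPM with WM-1119 and 109, 102 and 87.7 CPM with DMSO. It too rose without overlap, by 0.40 ± 0.06 on the log2 scale at 3 days (adjusted p = 7.14e-05) and 0.27 ± 0.06 at 6 days (adjusted p = 0.00233). These genes are near-identical copies in part: of the distinct stretches of 75 bases in the GENCODE vM21 transcripts of H2-Q7, 22.6% also occurred in transcripts of another gene, as did 17.9% for H2-Q6 and 7.91% for H2-Q4. How reads that fit several genes were counted is not given in the sources used, so the split of counts among them is uncertain.

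H2-T23 encodes Qa-1, which presents signal peptides of other class I chains to receptors on NK cells. Its level was 82.2, 80.7 and 79.2 CPM with WM-1119 and 73.1, 77.3 and 66.6 CPM with DMSO at 3 days. At 6 days H2-T23 was at 79.6, 87.4 and 76.3 CPM with WM-1119 and 70.2, 73.5 and 65.5 CPM with DMSO. The groups did not overlap at either time, but the difference passed the test only at 6 days, with log2 fold changes of 0.16 ± 0.06 at 3 days (adjusted p = 0.0709) and 0.22 ± 0.06 at 6 days (adjusted p = 0.00929). At 3 days it passed without DMSO replicate 2 (adjusted p = 0.0392), and at 6 days it did not pass without WM-1119 replicate 2, the highest (0.095). H2-T22, which encodes a ligand of some gamma delta T cell receptors, was at 70.5, 67.7 and 67.0 CPM with WM-1119 and 64.9, 69.6 and 58.5 CPM with DMSO at 3 days. At 6 days H2-T22 was at 75.9, 75.3 and 71.9 CPM with WM-1119 and 63.2, 65.9 and 59.8 CPM with DMSO. It overlapped at 3 days (0.09 ± 0.06; adjusted p = 0.328) and rose at 6 days (0.24 ± 0.06; adjusted p = 0.00371); 19.2% of its 75-base stretches also occurred in H2-T10. H2-T24 had low levels, 8.38, 12.2 and 10.1 CPM with WM-1119 and 6.87, 7.10 and 7.32 CPM with DMSO at 3 days. At 6 days H2-T24 was at 12.4, 9.67 and 10.9 CPM with WM-1119 and 7.20, 6.65 and 8.17 CPM with DMSO. It rose 1.46-fold at 3 days (0.55 ± 0.13; adjusted p = 0.00403, and adjusted p = 0.0601 without WM-1119 replicate 2, the highest) and 1.5-fold at 6 days (0.58 ± 0.13; adjusted p = 0.00159).

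H2-M3 encodes a class I molecule that presents peptides beginning with N-formylmethionine, as bacterial and mitochondrial proteins do. It was at 26.8, 25.0 and 25.3 CPM with WM-1119 and 26, 23.4 and 23.4 CPM with DMSO at 3 days. At 6 days H2-M3 was at 26.9, 28.0 and 26.3 CPM with WM-1119 and 23.6, 25.0 and 22.4 CPM with DMSO. The groups overlapped at 3 days (0.08 ± 0.07; adjusted p = 0.456) and not at 6 days (0.19 ± 0.07; adjusted p = 0.0401). This call was lost without WM-1119 replicate 1, 2 or 3 of 6 days (adjusted p = 0.0995, 0.16 and 0.0602), without DMSO replicate 1 or 3 of 6 days (0.0913 and 0.113) and without WM-1119 replicate 3 of 3 days (0.0509). Cd1d1, which presents lipids to NKT cells, ranged from 11.2 to 15.7 CPM over the 12 libraries and did not pass the test at 3 days (0.05 ± 0.09; adjusted p = 0.736) or 6 days (-0.13 ± 0.09; adjusted p = 0.274). Of its 75-base stretches 18.7% were shared with Cd1d2.

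**Figure D3:**
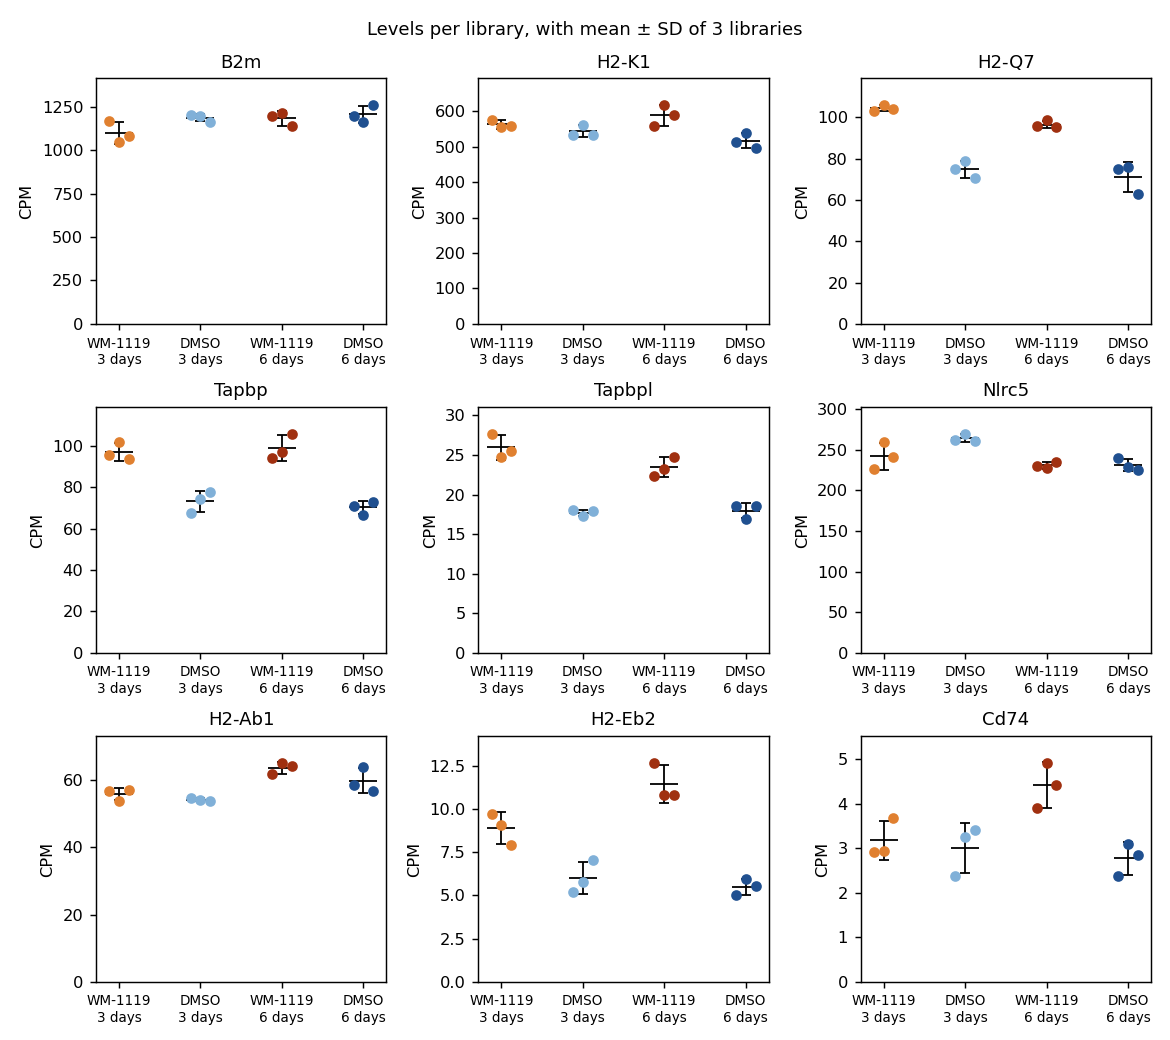
Levels in CPM of 9 of the genes in each of the 12 libraries, with mean and SD of 3 libraries per group; each axis starts at 0. The WM-1119 points of H2-Q7, Tapbp, Tapbpl and H2-Eb2 lie above all DMSO points of the same day, those of Cd74 do so at 6 days, and those of B2m and H2-Ab1 overlap with DMSO.

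Of the 6 genes of peptide transport and loading, the 4 that encode chaperones and a trimming enzyme rose at both times, and the transporter subunits did not pass the test. Tapbp encodes tapasin, which bridges the TAP transporter and the empty heavy chain and lies at the centromeric end of the MHC (chr17:33919478-33929290). It was at 95.9, 102 and 93.8 CPM with WM-1119 and 67.6, 74.4 and 77.6 CPM with DMSO at 3 days. At 6 days Tapbp was at 94.0, 97.3 and 106 CPM with WM-1119 and 71.2, 66.8 and 72.9 CPM with DMSO. Without overlap at either time, it rose 1.33-fold at 3 days (0.41 ± 0.06; adjusted p = 1.9e-05) and 1.41-fold at 6 days (0.49 ± 0.06; adjusted p = 1.04e-06). Tapbpl, which encodes the tapasin-related peptide editor TAPBPR outside the loading complex, was at 27.7, 24.7 and 25.5 CPM with WM-1119 and 18.0, 17.3 and 17.9 CPM with DMSO at 3 days. At 6 days Tapbpl was at 22.3, 23.2 and 24.8 CPM with WM-1119 and 18.5, 16.9 and 18.5 CPM with DMSO. The groups lay apart at both times, and the rises were 1.46-fold at 3 days (0.54 ± 0.08; adjusted p = 1.1e-05) and 1.3-fold at 6 days (0.38 ± 0.08; adjusted p = 0.000476).

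Pdia3 encodes ERp57, a disulfide isomerase that is bound to tapasin in the loading complex and also folds other glycoproteins. It was at 400.2, 383 and 400.5 CPM with WM-1119 and 341, 344 and 331 CPM with DMSO at 3 days. At 6 days Pdia3 was at 436, 454 and 442 CPM with WM-1119 and 326, 332 and 361 CPM with DMSO. It rose without overlap by 0.22 ± 0.04 on the log2 scale at 3 days (adjusted p = 0.000659) and 0.39 ± 0.04 at 6 days (adjusted p = 4.68e-07). Erap1, the aminopeptidase that trims peptides in the endoplasmic reticulum, was at 208, 205 and 207 CPM with WM-1119 and 184, 178 and 189.9 CPM with DMSO at 3 days. At 6 days Erap1 was at 229.9, 228 and 226 CPM with WM-1119 and 189.9, 184 and 209.8 CPM with DMSO. It rose by 0.17 ± 0.05 at 3 days (adjusted p = 0.0132, and adjusted p = 0.0779 without DMSO replicate 2, the lowest) and by 0.23 ± 0.05 at 6 days (adjusted p = 0.000766). Tap1 ranged over 151 to 173 CPM, with log2 fold changes of -0.01 at 3 days (95% interval -0.11 to 0.09; adjusted p = 0.898) and 0.10 at 6 days (0.00 to 0.20; adjusted p = 0.114). Its groups did not overlap at 6 days, at 164, 172 and 173 CPM with WM-1119 and 161, 163 and 151 CPM with DMSO. Tap2 ranged over 76.6 to 89.5 CPM, with -0.13 at 3 days (-0.23 to -0.02; adjusted p = 0.0745, and adjusted p = 0.042 without DMSO replicate 1) and 0.00 at 6 days (-0.10 to 0.11; adjusted p = 0.984). Its WM-1119 libraries all lay below those of DMSO at 3 days, at 77.6, 79.1 and 77.0 CPM against 80.8, 89.5 and 84.9 CPM.

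Of the immunoproteasome subunits, which replace the constitutive catalytic subunits and favour peptides that bind class I, Psmb9 and Psmb10 rose and Psmb8 did not pass the test. Psmb10 was at 114, 112 and 121 CPM with WM-1119 and 96.0, 103 and 89.9 CPM with DMSO at 3 days. At 6 days Psmb10 was at 119, 122 and 114 CPM with WM-1119 and 87.5, 97.8 and 97.0 CPM with DMSO. The groups did not overlap, and the log2 fold change was 0.26 ± 0.06 at 3 days (adjusted p = 0.0015) and 0.34 ± 0.06 at 6 days (adjusted p = 8.58e-05). Psmb9 was at 112, 116 and 123 CPM with WM-1119 and 108, 106 and 96.0 CPM with DMSO at 3 days. At 6 days Psmb9 was at 117, 122 and 110.1 CPM with WM-1119 and 95.3, 104 and 89.7 CPM with DMSO. Its libraries lay apart at both times, with 0.17 ± 0.06 at 3 days (adjusted p = 0.0372) and 0.27 ± 0.06 at 6 days (adjusted p = 0.00134). The call of Psmb9 at 3 days was lost without WM-1119 replicate 2 or 3 (adjusted p = 0.0807 and 0.171), DMSO replicate 2 or 3 (0.064 and 0.18) or WM-1119 replicate 1 of 6 days (0.0539). Psmb8 ranged over 301 to 381 CPM, overlapped at both times, and had log2 fold changes of -0.06 at 3 days (-0.17 to 0.05; adjusted p = 0.448) and 0.12 at 6 days (0.01 to 0.23; adjusted p = 0.0985). In a fit of the 6-day libraries with the replicate number as a block Psmb8 was called higher, at 0.12 (adjusted p = 0.0218).

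The PA28 activator, a ring that opens the proteasome, is built from the products of Psme1 and Psme2. Psme1 was at 188, 174 and 181 CPM with WM-1119 and 158, 169 and 155 CPM with DMSO at 3 days. At 6 days Psme1 was at 171, 192 and 162 CPM with WM-1119 and 148, 159 and 142 CPM with DMSO. The groups did not overlap, and it rose by 0.17 ± 0.06 at 3 days (adjusted p = 0.04) and 0.22 ± 0.06 at 6 days (adjusted p = 0.00577). The call at 3 days was lost without WM-1119 replicate 1 or 3 (adjusted p = 0.129 and 0.0949) or DMSO replicate 1 or 3 (0.126 and 0.137), and that at 6 days without WM-1119 replicate 2, the highest (0.0749). Psme2 ranged over 35.6 to 46.4 CPM and did not pass at 3 days (0.07 ± 0.08; adjusted p = 0.559) or 6 days (0.06 ± 0.08; adjusted p = 0.608); 46.9% of its 75-base stretches also occurred in Psme2b.

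Nlrc5, the transactivator of class I genes, was not called at either time. It was at 226, 259 and 241 CPM with WM-1119 and 262, 269.8 and 260.2 CPM with DMSO at 3 days. At 6 days Nlrc5 was at 230.4, 227 and 235 CPM with WM-1119 and 239.9, 229 and 225 CPM with DMSO. The WM-1119 libraries lay just below the DMSO libraries at 3 days, with a log2 fold change of -0.12 (95% interval -0.22 to -0.02; adjusted p = 0.063), and without WM-1119 replicate 2, the highest of its group, the change was -0.18 and passed the test (adjusted p = 0.0162). At 6 days the libraries overlapped, at 0.00 (-0.10 to 0.10; adjusted p = 0.961).

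**Figure D4:**
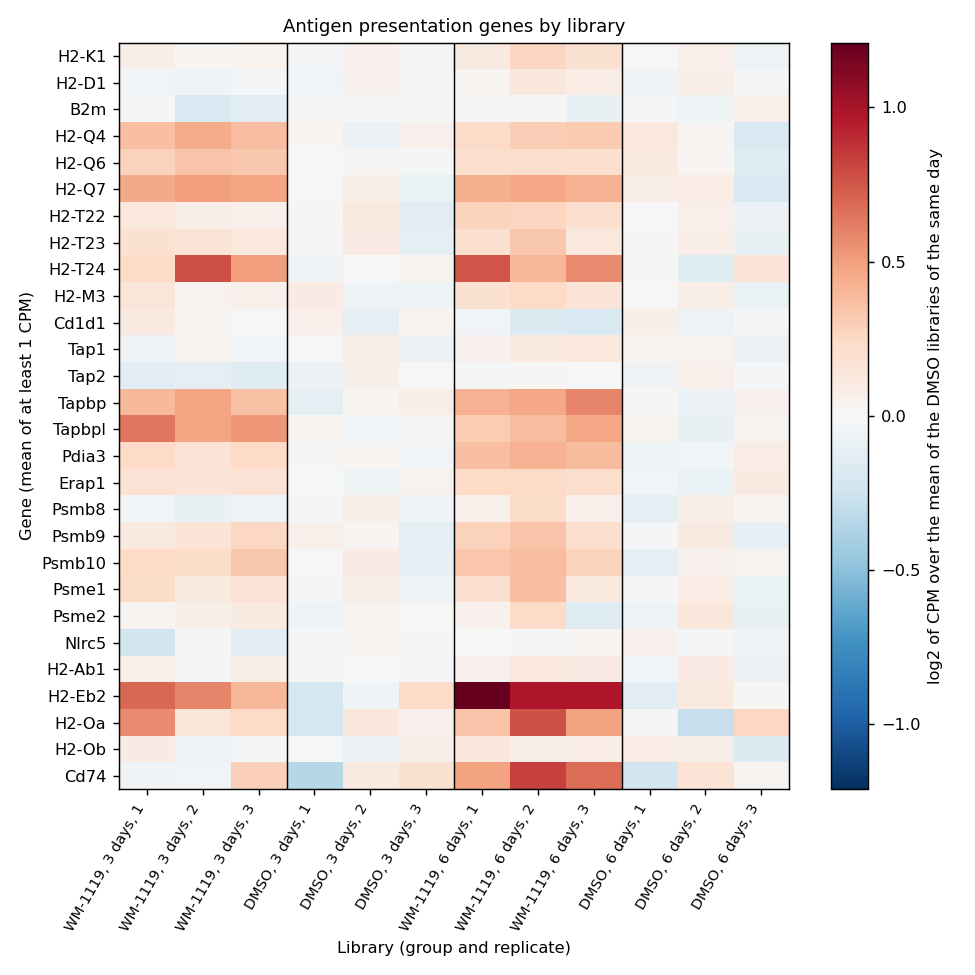
Log2 of the CPM over the mean of the DMSO libraries of the same day for the 28 genes that averaged at least 1 CPM, in each of the 12 libraries. The WM-1119 columns are higher for H2-Q4, H2-Q6, H2-Q7, H2-T24, Tapbp, Tapbpl, Pdia3 and H2-Eb2, and the rows of H2-D1, B2m, Tap1, Tap2 and Nlrc5 stay near 0.

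Among the class II chain genes, H2-Eb2 had the largest fold change of the called members, at a low level. H2-Eb2, an E-like beta chain gene at chr17:34325503-34341410, was at 9.73, 9.07 and 7.92 CPM with WM-1119 and 5.20, 5.79 and 7.04 CPM with DMSO at 3 days. At 6 days H2-Eb2 was at 12.7, 10.8 and 10.8 CPM with WM-1119 and 5.00, 5.94 and 5.53 CPM with DMSO. The groups did not overlap at either time. H2-Eb2 rose 1.49-fold at 3 days (0.58 ± 0.13; adjusted p = 0.00205) and 2.1-fold at 6 days (1.07 ± 0.13; adjusted p = 7.97e-07), and the change of the effect between the times, 0.49 ± 0.18 on the log2 scale, did not pass the test (adjusted p = 0.378). H2-Ab1, the only abundant class II chain gene (chr17:34263227-34269418), was at 56.7, 53.9 and 57.1 CPM with WM-1119 and 54.8, 54.2 and 53.8 CPM with DMSO at 3 days. At 6 days H2-Ab1 was at 61.8, 65.3 and 64.2 CPM with WM-1119 and 58.5, 64.0 and 56.9 CPM with DMSO. Its libraries overlapped at both times, with 0.04 at 3 days (-0.07 to 0.16; adjusted p = 0.644) and 0.09 at 6 days (-0.02 to 0.21; adjusted p = 0.209).

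H2-Aa, the alpha chain partner of H2-Ab1, was at 0.487, 0.384 and 0.367 CPM with WM-1119 and 0.418, 0.676 and 0.284 CPM with DMSO at 3 days. At 6 days H2-Aa was at 0.359, 0.735 and 0.817 CPM with WM-1119 and 0.488, 0.266 and 0.609 CPM with DMSO. These levels overlapped, and at this depth the interval of the log2 fold change was wide, -1.12 to 0.74 at 3 days (adjusted p = 0.81) and -0.40 to 1.29 at 6 days (adjusted p = 0.444). H2-Eb1, the classical E beta chain gene, had 1, 0 and 6 counts with WM-1119 and 2, 1 and 1 counts with DMSO at 3 days, and no count with WM-1119 and 3, 0 and 1 counts with DMSO at 6 days. Ciita, the transactivator of class II genes, had 7 counts in all 12 libraries together, 1 with WM-1119 and 3 with DMSO at 3 days, and 2 with WM-1119 and 1 with DMSO at 6 days. It was at 0 counts in 7 libraries and at most 0.136 CPM in any, and no difference was detectable at this depth.

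Cd74 encodes the invariant chain, which fills the groove of new class II molecules and sorts them to endosomes. It was at 2.92, 2.93 and 3.67 CPM with WM-1119 and 2.37, 3.24 and 3.41 CPM with DMSO at 3 days. At 6 days Cd74 was at 3.89, 4.92 and 4.42 CPM with WM-1119 and 2.37, 3.10 and 2.84 CPM with DMSO. It overlapped at 3 days (0.08 ± 0.19; adjusted p = 0.803) and rose 1.62-fold at 6 days (0.69 ± 0.18; adjusted p = 0.00473), with a change of the effect between the times of 0.61 ± 0.26 that did not pass the test (adjusted p = 0.489). Its highest library was WM-1119 replicate 2 of 6 days, which also had the most Col1a1; in the 1 library of each treatment with under 1 CPM of Col1a1 at 6 days the log2 fold change was 0.63 (adjusted p = 0.226).

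H2-Oa and H2-Ob encode DO, an inhibitor of DM that is made mainly in B cells, and DM in turn removes the invariant chain fragment from class II. H2-Oa was at 6.00, 4.47 and 4.78 CPM with WM-1119 and 3.48, 4.44 and 4.20 CPM with DMSO at 3 days. At 6 days H2-Oa was at 4.43, 5.94 and 4.90 CPM with WM-1119 and 3.44, 2.88 and 4.14 CPM with DMSO. The groups did not overlap; the difference did not pass at 3 days (0.32 ± 0.17; adjusted p = 0.188) and passed at 6 days (0.55 ± 0.17; adjusted p = 0.0186). That call was lost without WM-1119 replicate 2 (adjusted p = 0.129) or DMSO replicate 1 or 2 (0.0525 and 0.0752) of 6 days. H2-Ob, the more abundant of the pair per kilobase, ranged over 59.4 to 73.4 CPM and did not pass at 3 days (0.01, interval -0.12 to 0.15; adjusted p = 0.918) or 6 days (0.10, -0.03 to 0.23; adjusted p = 0.261). The DM genes were below 1 CPM in every library. H2-DMa ranged over 0.314 to 0.882 CPM (-0.77 ± 0.38 at 3 days, adjusted p = 0.152; 0.11 ± 0.42 at 6 days, adjusted p = 0.866), and at 3 days passed as lower without WM-1119 replicate 1, its highest library of the group (-1.30; adjusted p = 0.0293). H2-DMb1 ranged over 0.0568 to 0.659 CPM (0.93 ± 0.56, adjusted p = 0.245; 0.95 ± 0.52, adjusted p = 0.184), and its near copy H2-DMb2, with which it shared 19.1% of its 75-base stretches, had 6 counts in all.

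The effect of WM-1119 did not differ detectably between 6 and 3 days for any member: 0 of 31 were called for the change of the effect by edgeR's quasi-likelihood test or by DESeq2, and 5 had an unadjusted p below 0.05, while 0.725% of all genes were called. Genes called at 6 days only are therefore not shown to respond later. Between the times with WM-1119, H2-Ab1 (log2 fold change, 6 over 3 days, 0.19; adjusted p = 0.0451) and Pdia3 (0.17; 0.0238) were higher at 6 days, and H2-Q4 (-0.26; 0.0198) and Cd1d1 (-0.37; 0.0159) lower, 4 of 31 where 5.62% of all genes were called, 2.33% as higher and 3.29% as lower. The number of calls depended on which library was left out: 2, 0 and 1 of the 31 were called without WM-1119 replicate 1, 2 or 3 of 3 days, and 1 each without WM-1119 replicate 1, 2 or 3 of 6 days. Between the times with DMSO 0 of 31 were called by edgeR and 5 had an unadjusted p below 0.05, with 0.809% called over all genes, 0.358% as higher and 0.45% as lower. DESeq2 called 1, Nlrc5, as lower at 6 days (-0.19; adjusted p = 0.0275, against 0.0624 by edgeR). Nlrc5 also passed by edgeR without WM-1119 replicate 1 or 2 of 3 days (0.0328 and 0.0444) or DMSO replicate 1 of 6 days (0.0432). These comparisons share libraries with those between the treatments.

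The genes known to control MHC transcription did not move in 1 direction. Of 19 tested regulators 3 rose and 3 fell at 3 days, and 5 rose and 3 fell at 6 days, beside 24.4% and 30.8% of all genes called. These shares of all genes also apply to the lists that follow. Irf4, a factor of B cell activation and plasma cell differentiation, fell to 213 ± 6.94 CPM with WM-1119, against 347 ± 21.3 CPM with DMSO at 6 days (mean ± SD of 3 libraries; log2 fold change -0.71, adjusted p = 8.88e-08, and -0.47 at 3 days). Ezh2, the methyltransferase of the Polycomb repressive complex that acts on silent genes, was lower at 232 ± 6.47 CPM with WM-1119 against 295 ± 11.8 CPM with DMSO at 6 days (-0.35; adjusted p = 5.84e-06). Irf2 fell (-0.38; adjusted p = 1.03e-05) and the NF-κB subunit gene Nfkb1 rose (0.32; adjusted p = 5.7e-05) at 6 days. The median of the list was 0.07 at 3 days and 0.03 at 6 days.

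Genes of interferon receptors and their signalling, a pathway that induces class I genes, were higher in 5 of 16 tested cases and lower in 2 at 3 days. At 6 days 9 were higher and 2 lower, where 15.7% of all genes were higher and 15.1% lower. The receptor-associated kinase gene Jak1 was at 351 ± 15.8 CPM with WM-1119 and 259 ± 3.74 CPM with DMSO at 6 days (0.44; adjusted p = 3.89e-08), and its log2 fold change was 0.14 at 3 days, a change of the effect that passed the test (adjusted p = 0.0169). Jak2 did likewise, at 59.8 ± 0.653 CPM with WM-1119 and 38.7 ± 1.94 CPM with DMSO at 6 days (0.63; adjusted p = 4.82e-08; 0.23 at 3 days; change of the effect adjusted p = 0.0288). Socs3, a feedback inhibitor of these kinases, rose by 0.81 (adjusted p = 1.67e-05) and Tyk2 by 0.31 (adjusted p = 0.000612) at 6 days.

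Of 21 tested genes of the constitutive proteasome and other cytosolic peptide supply 1 rose and 4 fell at 3 days. At 6 days 1 rose and 5 fell. At 6 days the activator gene Psme4 (-0.26; adjusted p = 0.000247), the core subunit gene Psma3 (-0.38; 0.000249) and the aminopeptidase gene Npepps (-0.25; 0.000353) fell, and Psma1 rose (0.20; 0.00288). A list of 11 chaperones and other genes of class I folding and loading contained 6 of the members. In it 4 rose and 0 fell at 3 days, and 6 rose and 1 fell at 6 days. The 4 that rose at 3 days, Pdia3, Tapbp, Tapbpl and Erap1, are members given above, and had the smallest p at 6 days. The chaperone genes outside the set, Canx, Calr, Hspa5, P4hb and Uggt1, did not pass at 3 days. At 6 days Hspa5 (0.15, edgeR adjusted p = 0.0253) and Calr (0.11, 0.0436) rose and Canx fell (-0.12, 0.0266). The endolysosomal genes of class II processing were mixed, as 3 of 12 rose and 2 fell at 3 days, and 4 rose and 2 fell at 6 days. Ifi30, a thiol reductase that unfolds antigens in lysosomes, was at 16.5 ± 1.69 CPM with WM-1119 and 7.06 ± 0.328 CPM with DMSO at 6 days (1.22; adjusted p = 7.06e-09). Ctsl, a protease that degrades the invariant chain in thymic epithelium, was at 6.63 ± 0.509 CPM with WM-1119 and 12.8 ± 0.0391 CPM with DMSO (-0.95; adjusted p = 1.12e-07). The asparagine endopeptidase gene Lgmn rose (0.35; adjusted p = 1.06e-05) and the cysteine protease inhibitor gene Cst3 fell (-0.38; adjusted p = 4.82e-05).

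**Figure D5:**
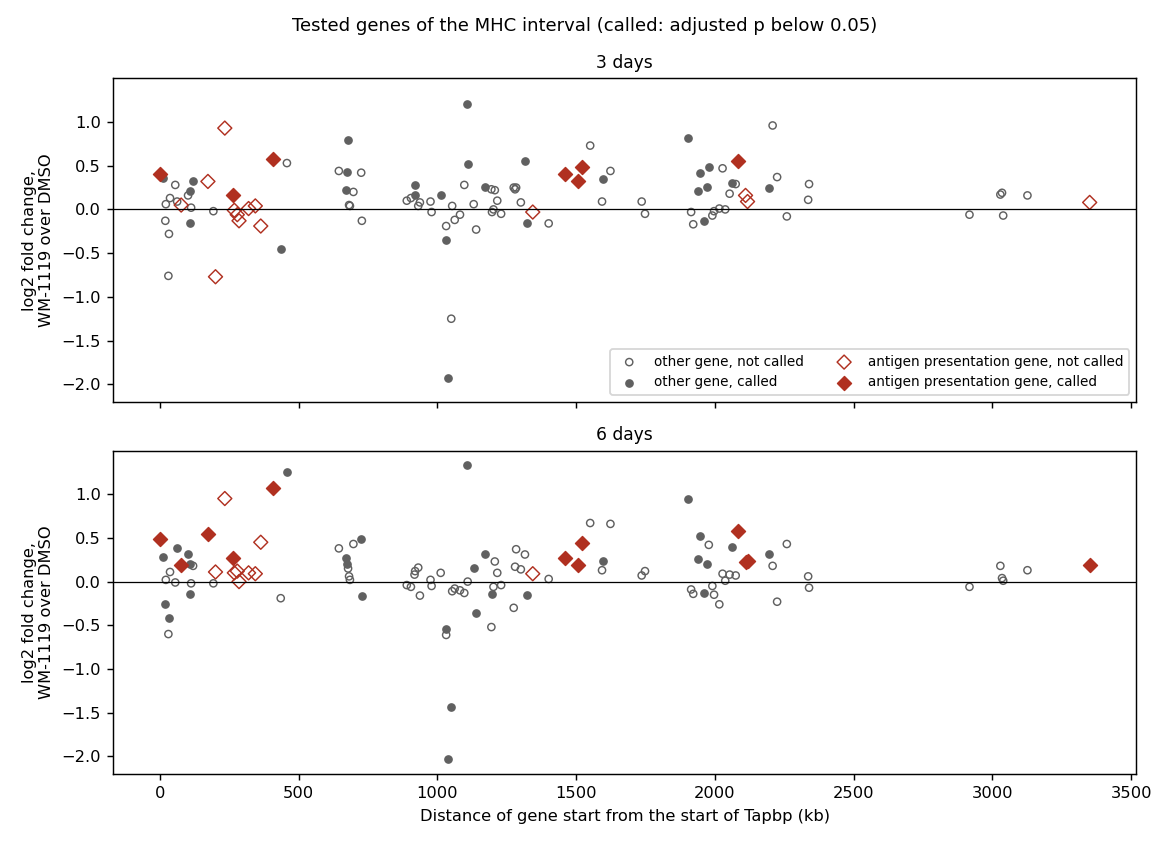
Log2 fold changes, WM-1119 over DMSO, of the tested genes of the MHC interval of chromosome 17 by distance of the gene start from the start of Tapbp, in kilobases, at 3 days and at 6 days. Filled symbols passed the test; called antigen presentation genes are all above 0, and the other called genes lie on both sides of it.

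Of the 34 genes 23 lie in the MHC interval of chromosome 17, between 33919478 and 37274485 of mm10, a span of 3355 kb. The other 93 tested genes of this span were called in 29.0% of cases at 3 days, 21 as higher and 6 as lower, and in 31.2% at 6 days, 18 as higher and 11 as lower. Both shares, which join the 2 directions, are near those over all genes, 24.4% and 30.8%. The shares called as higher alone were 22.6% at 3 days and 19.4% at 6 days, against 11.8% and 15.7% over all genes. The median log2 fold change of the 93 genes was 0.11 at 3 days and 0.06 at 6 days, against 0.002 and -0.004 over all genes. Among 25 neighbours without a role in presentation 9 passed as higher and 2 as lower at 3 days. At 6 days 8 passed as higher and 5 as lower. The membrane scaffold gene Flot1 was at 26 ± 0.596 CPM with WM-1119 and 13.5 ± 1.01 CPM with DMSO at 6 days (0.95; adjusted p = 9.8e-09), Ppp1r18 rose by 0.52 (adjusted p = 1.01e-08), Gnl1 by 0.40 (adjusted p = 1.52e-05) and Zbtb22 by 0.27 (adjusted p = 0.00251).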

How the data were processed

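RNA from 12 cultures was measured, 3 per group. Per the labels, poly(A) RNA was sequenced from stranded libraries. The deposited table holds raw read counts per gene, made by the authors with featureCounts on mm10, per the submitters' processing notes; the aligner, strand setting and treatment of reads with several matches are not given in the sources used. A gene length stands beside the counts in the deposited table and gave the values per kilobase. Of 27179 rows 874 carried no gene identifier (0.305% to 0.362% of counts) and were left out; 25275 of 26305 identifiers matched RefSeq symbols.

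All 12 libraries entered 1 edgeR 4.0.16 quasi-likelihood fit (R 4.3.3; TMM, filterByExpr, robust), with P-values two-sided and adjusted by Benjamini-Hochberg over 11997 genes, threshold 0.05. CPM are the counts scaled by library total and TMM factor, as edgeR gives them. The common biological coefficient of variation was 5.69%. The lowest correlation between replicates was 0.992. An exact permutation of 3 against 3 libraries cannot give a p below 0.1. Nothing in the labels says whether replicates were separate thaws or days, so the p-values rest on the spread of these samples, which may be technical in part.

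Each member that passed the test at either time, and 8 fixed genes, were given in every library; of further lists up to 4 called genes with the smallest p at 6 days. The members and lists were chosen with earlier results of these data known. The alternatives tried were other scalings (RLE, upper quartile), other filters (none, or 1 CPM in 3 libraries), DESeq2 1.42.0, limma voom 3.58.1, a fit of the 2 groups alone, a block for the replicate number, and each library left out. Leaving out 5 libraries in which Col1a1 exceeded 1 CPM, and a block within 6 days, were chosen after seeing the data. Same-numbered libraries deviated together in all 3 pairs at 6 days (correlations 0.193, 0.144 and 0.243 between the treatments), and in 4 of 18 pairs over 0.1 in all, so the numbers were taken to pair the libraries at 6 days only. Differently numbered libraries reached 0.0623 at most at 6 days, but 0.142 between WM-1119 replicate 1 of 3 days and DMSO replicate 3 of 6 days. The main calls at 6 days come from the fit of all 12 libraries without a block. The fit was tested on simulated data with changes set in the WM-1119 libraries of 3 days, in 49 or 50 genes tested per size. It recovered 18% of genes changed 1.15-fold, 61.2% at 1.25-fold, 82% at 1.5-fold and 94% at 2-fold. Of its 133 calls 4.51% were false. In the data 2930 genes were called at 3 days, so a larger unadjusted p passes there than in the simulation. The shares recovered are therefore not those to be had in the data. A member that was not called may still have a small change.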

Additional observations from a re-analysis of the deposited data

How the results depend on the processing

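Of the 30 calls of members between the treatments, 12 at 3 days and 18 at 6 days, 15 held under every alternative, 15 were lost under at least 1, and 0 reversed; the log2 fold changes kept their sign in all 30. Scaling and filters left 12 to 13 members higher at 3 days and 17 to 18 at 6 days, and voom left 10 at 3 days. With each library left out in turn, 10 to 12 were higher at 3 days and 14 to 18 at 6 days, and 0 to 2 were lower at 3 days (B2m, H2-DMa, Tap2 or Nlrc5). At 3 days voom lost Psmb9 and Psme1 (adjusted p = 0.0532 and 0.0548), and H2-T23 passed with upper-quartile scaling, no filter or the 2 groups alone (0.046, 0.0419 and 0.0397); at 6 days H2-M3 was lost with no filter, DESeq2 or the 2 groups alone (0.0839, 0.0648 and 0.0607). With the replicate number as a block over all 12 libraries 1 member, Tap2, was lower at 3 days (-0.13; adjusted p = 0.0481) and H2-T23 was called higher there (0.16; 0.0215). With the block within 6 days, where the numbers were taken to pair the libraries, Psmb8 was called (0.12, adjusted p = 0.0218 by edgeR). That fit held the 6-day libraries alone and tested 29 members, and no other call among them changed from the fit of all 12 libraries. Of all genes 4352 passed, against 3360 in the 6-day libraries without the block and 3693 in the fit of all 12 libraries. Without the 5 libraries with over 1 CPM of Col1a1, 1 member (Nlrc5, -0.18; 0.0237) was lower at 3 days, 8 were higher at 6 days, 1516 of all genes were called at 6 days, 0 members changed between the times with WM-1119 and 1 (H2-Q4, -0.32; 0.0151) with DMSO; each treatment was then 1 library at 6 days, assumed to vary like the other groups. The calls lost there at 6 days were H2-T22, H2-T23, H2-T24, H2-M3, Erap1, Psmb9, Psmb10, Psme1, H2-Oa and Cd74 (adjusted p from 0.0574 to 0.649). The count between the times with WM-1119 was 0 to 5 with 1 library left out. With DMSO it was 0 to 1, and it was 1 with upper-quartile scaling, with no filter, with DESeq2 and with the block, each time Nlrc5. Near-identical class I genes and levels under 1 CPM limit what the counts can resolve, and a change of total RNA per cell would not show.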

Other observations

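Of 14 genes outside the set that were listed for comparison as class I-like and found in the table, 7 were tested. At 6 days H2-T10 was at 29.7 ± 1.35 CPM with WM-1119 and 23.7 ± 2.64 CPM with DMSO (SD, n = 3 each; log2 fold change 0.32 ± 0.08, SE; edgeR adjusted p = 0.00317), and it was higher at 3 days too (0.24; adjusted p = 0.0227). Mr1, which presents vitamin B metabolites to MAIT cells, was lower, at 1.20 ± 0.214 CPM with WM-1119 and 2.00 ± 0.506 CPM with DMSO at 6 days (-0.74 ± 0.26; adjusted p = 0.0352; -0.92 at 3 days). H2-Ke6, which is on that list for its name but encodes a dehydrogenase and no class I-like molecule, was higher (0.20; adjusted p = 0.0217). With H2-Ke6 counted, 2 of the 7 were higher and 1 lower at both times, where 24.4% of all genes were called at 3 days and 30.8% at 6 days.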
